A study of Mus musculus with 6 samples.

Results

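The T cell receptor complex and its coreceptors were examined in bulk RNA sequencing of mouse optic nerves as 10 genes chosen by symbol: Cd3d, Cd3e, Cd3g, Cd247, Cd4, Cd8a, Cd8b1, Lck, Cd2 and Cd28. All 10 were among the 25755 genes of the table, and no filter on low values removed any of them. The 6 mice carried Nf1 flox/flox alleles with hGFAP-Cre, so that Cre recombinase under the human GFAP promoter removed Nf1 from neuroglial progenitors and their progeny in both groups. T cells do not arise from these progenitors, and no group with intact Nf1 was sequenced in the samples used here. The sham group (mice 1, 2 and 3) underwent the operation without a crush, and the ON-CR group (mice 4, 5 and 6) had the nerve crushed when 6 weeks old. Nerves were taken from perfused mice 12 weeks old, labelled as 3 months. The comparison asks whether the RNA of T cells in the nerve differed after injury.

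A T cell recognizes antigen with an alpha-beta or gamma-delta receptor pair that has almost no cytoplasmic tail. The signal is carried by the CD3 delta, epsilon and gamma chains and by the zeta chain, whose tails hold immunoreceptor tyrosine-based activation motifs. CD4 and CD8 bind class II and class I major histocompatibility molecules and bring the kinase Lck to these motifs, while CD2 supports adhesion and CD28 supplies costimulation. A healthy optic nerve holds few T cells.

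The coding sequences of the activation motifs are shown because they are what separates the signalling chains from the other members. A motif was taken as 2 tyrosines, each followed 3 residues later by leucine or isoleucine, with 6 to 8 residues between the repeats. Capitals mark the codons of these tyrosines, leucines and isoleucines. Sequences are from GENCODE transcripts on GRCm38, read 5′ to 3′ on the coding strand, and each motif runs across an exon junction.
Cd3d, chr9:44986095-44986311, plus strand, exons 4 and 5: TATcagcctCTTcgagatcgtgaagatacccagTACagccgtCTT
Cd3e, chr9:44999549-45000440, minus strand, exons 7 and 8: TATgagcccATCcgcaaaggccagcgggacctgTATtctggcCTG
Cd3g, chr9:44970735-44971268, minus strand, exons 5 and 6: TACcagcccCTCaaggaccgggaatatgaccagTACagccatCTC
Cd247 motif 1, chr1:165856451-165857454, plus strand, exons 3 and 4: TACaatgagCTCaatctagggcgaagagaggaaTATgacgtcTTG
Cd247 motif 2, chr1:165858473-165859260, plus strand, exons 5 and 6: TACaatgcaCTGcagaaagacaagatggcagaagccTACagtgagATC
Cd247 motif 3, chr1:165859819-165861042, plus strand, exons 7 and 8: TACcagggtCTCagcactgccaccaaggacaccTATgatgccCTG
The CD3 chains held 1 motif each and the zeta chain, encoded by Cd247, held 3. The other 6 members held 0.

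Cd3g, Cd3d and Cd3e lie within 40056 bases of chromosome 9, and the starts of Cd3g and Cd3d are 1355 bases apart on opposite strands. Their promoters are shown because the genes lie so close together, with r across the 6 mice of 0.86 to 0.94 for their pairs, within the range of pairs of members on different chromosomes (0.98 for Cd3d with Cd28). Each line gives the 250 bases before the start of the gene, from RefSeq on GRCm38.p6, on the strand of the gene, and capitals mark the motifs found. For Cd3e this start lies inside the gene coordinates given below (chr9:44998740-45009627). The end of its window, with most of its marked motif, therefore overlaps those coordinates.
Cd3g, chr9:44980432-44980681, minus strand: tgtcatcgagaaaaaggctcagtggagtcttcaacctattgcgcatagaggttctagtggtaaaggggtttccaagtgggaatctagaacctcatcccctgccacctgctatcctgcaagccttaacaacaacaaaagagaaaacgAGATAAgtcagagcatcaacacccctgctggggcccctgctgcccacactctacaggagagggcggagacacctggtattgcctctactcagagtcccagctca
Cd3d, chr9:44981536-44981785, plus strand: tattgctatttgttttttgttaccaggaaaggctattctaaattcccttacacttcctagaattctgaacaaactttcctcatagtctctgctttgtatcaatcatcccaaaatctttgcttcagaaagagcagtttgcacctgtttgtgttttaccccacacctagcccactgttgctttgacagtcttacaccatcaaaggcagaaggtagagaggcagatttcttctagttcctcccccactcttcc
Cd3e, chr9:45009612-45009861, minus strand: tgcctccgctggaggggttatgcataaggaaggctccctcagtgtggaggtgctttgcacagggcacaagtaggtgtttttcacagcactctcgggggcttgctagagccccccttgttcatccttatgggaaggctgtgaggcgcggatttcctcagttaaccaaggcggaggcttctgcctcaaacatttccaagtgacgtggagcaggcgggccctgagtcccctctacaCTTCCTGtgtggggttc
On either strand, 5 motifs were searched, and no motif was found overlapping another. The GATA motif AGATAA was found before Cd3g and in 9.99% of 32851 promoters. The ETS motif CAGGAAG was found before Cd3e, on the other strand, and in 10.8% of promoters. The RUNX motif TGTGGT was in none of these 3 windows and in 14.0% of promoters. Likewise absent from the 3 windows were the E-box CAGCTG, held by 13.0% of promoters, and the TATA motif TATAAA, held by 12.4%. The table held 7 promoters for 6 of the 10 members. Of these 7, CAGGAAG was in 4, those of Cd3e, Cd247 and both of Lck.

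Depth was 17414091 to 23621006 estimated reads per library. Every ON-CR library, at 17414091 to 18978379 reads, was shallower than every sham library, at 19892892 to 23621006. A normalized value of 1 stood for about 1 read, and 3 reads, taken as the detection floor, corresponded to a value of 2.66 to 3.18. Members were measured from 3 to 243 reads per mouse, and counting error is large for the lowest. The groups also differed in sex-linked RNA: Xist was 2.14 to 30.9 in sham mice, against 2708 to 6357 in ON-CR mice, and Ddx3y was 1291 to 1645 in sham mice but 976, 4.19 and 0 in ON-CR mice 4, 5 and 6. Sex and surgery cannot be told apart in these mice. The library of ON-CR mouse 4 carried both RNAs at high values, Xist at 2708 and Ddx3y at 976, unlike any other library. Whether it held RNA of more than 1 mouse was not tested. Bpifa1, a secreted protein of airway epithelium, was at 7568, 4579 and 5894 in sham mouse 3 and ON-CR mice 5 and 6 and at 0 to 22.3 in the other 3 mice.

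None of the 10 members differed between the groups by limma (0 at an adjusted p at or under 0.05 and 0 at an unadjusted p under 0.05), against 2.10% and 15.6% of all genes. The groups of 0 members were separate from each other, against 21.6% of all genes. The log2 fold change of ON-CR over sham was above 0 for 9 members and below 0 for 1, with a median of 0.63 beside 0.03 over all genes. Leaving out ON-CR mouse 6 gave a median of -0.24, leaving out ON-CR mouse 5 gave 1.47, and leaving out sham mouse 1, 2 or 3 gave 0.15, 0.24 or 1.27. Their summed normalized value was 247, 285 and 709 in sham mice 1, 2 and 3, against 518, 226 and 1602 in ON-CR mice 4, 5 and 6. By this sum the highest nerve belonged to the ON-CR group, and so did the lowest. The lowest nerve depended on the measure. By the median log2 difference of the members from the sham mean, it was sham mouse 1 (-0.64), with ON-CR mouse 5 at -0.61. In bulk RNA, fewer T cells and less RNA per T cell cannot be told apart.

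**Figure D1:**
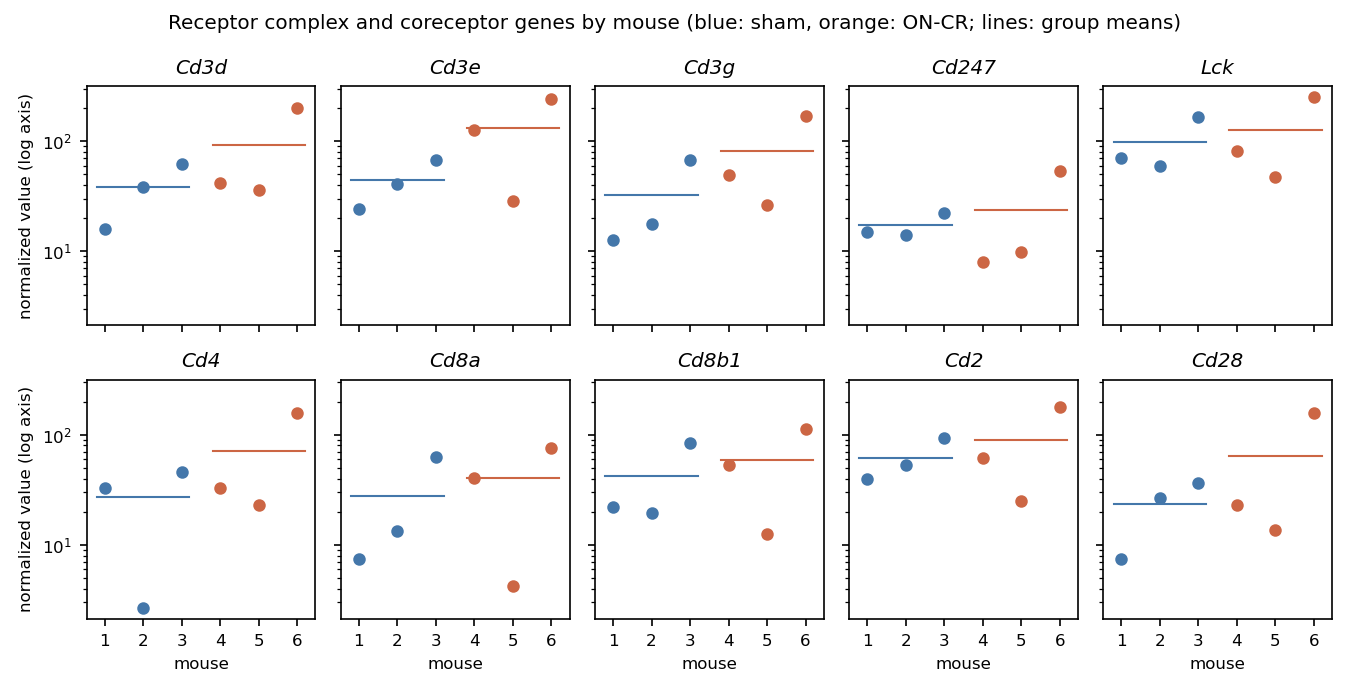
Normalized value (log axis) of each member in the 3 sham mice (blue) and the 3 ON-CR mice (orange), with lines at the group means. ON-CR mouse 6 was highest for all 10 genes, sham mouse 3 was the highest sham mouse for all 10, and ON-CR mouse 5 lay below sham mouse 3 throughout.

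The members shared much of their order among the mice. All 10 members were highest in ON-CR mouse 6, as were 20.3% of the 19650 genes with a mean value of at least 10. Among sham mice, all 10 were highest in mouse 3, as were 32.2% of those genes. ON-CR mouse 5 was the lowest ON-CR mouse for 9 members. It fell below sham mouse 3 for 10 members, and ON-CR mouse 4 did so for 9. Members share these libraries, so their common order is not 10 separate observations.

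Among the CD3 chains, Cd3d (ENSMUSG00000032094.8, chr9:44981786-44987339) encodes CD3 delta, which pairs with epsilon next to the alpha-beta receptor. It had values of 15.9, 38.1 and 62.0 in sham mice 1, 2 and 3, against 41.9, 35.6 and 200.4 in ON-CR mice 4, 5 and 6. Only ON-CR mouse 6 lay outside the sham range. The means were 38.7 ± 23.0 (SD, n = 3) and 92.6 ± 93.4, with a log2 fold change of 0.98 (SE 0.66, limma adjusted p = 0.525).

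Cd3e (ENSMUSG00000032093.7, chr9:44998740-45009627) encodes CD3 epsilon, present in both the delta-epsilon and the gamma-epsilon pair. Sham values were 24.4, 40.7 and 67.6, and ON-CR values were 127, 28.3 and 243. It was the only member for which ON-CR mouse 4 also rose above the sham range. Means of 44.3 ± 21.8 and 132 ± 107 gave a log2 fold change of 1.22 (SE 0.67, 95% interval -0.27 to 2.70, limma adjusted p = 0.420). Without ON-CR mouse 5 the fold change was 2.08 with a limma adjusted p of 0.0260, the only call of a member in 14 alternatives, and without ON-CR mouse 6 it was 0.55.

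Cd3g (ENSMUSG00000002033.14, chr9:44969572-44980431) encodes CD3 gamma, the other partner of epsilon. Its values were 12.7, 17.7 and 67.6 in the sham mice, against 48.9, 26.2 and 170.3 in the ON-CR mice. ON-CR mice 4 and 5 stood above sham mice 1 and 2 and below sham mouse 3. The log2 fold change was 1.24 (SE 0.72, limma adjusted p = 0.452) from means of 32.7 ± 30.4 and 81.8 ± 77.5.

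Cd247 (ENSMUSG00000005763.15, chr1:165788681-165877277) encodes the zeta chain, which NK cells also use. Values were 14.9, 14.1 and 22.4 in sham mice, against 7.99, 9.91 and 53.2 in ON-CR mice. ON-CR mice 4 and 5 were the lowest of the 6 and mouse 6 the highest, so the groups overlapped with a wider spread after injury. Its log2 fold change was -0.02 (SE 0.66, limma adjusted p = 0.990), from means of 17.1 ± 4.63 and 23.7 ± 25.6. Exons of Cd247 share 3007 bases with Pou2f1 on the opposite strand, whose mean value was 547, and the library kit does not mark strand. Reads of the 2 genes cannot be told apart there, and the value of Cd247 is uncertain.

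Lck (ENSMUSG00000000409.14, chr4:129548344-129573641) encodes the Src family kinase that phosphorylates the activation motifs. It had values of 70.04, 59.3 and 165 in sham mice, against 81.8, 47.2 and 252 in ON-CR mice. ON-CR mouse 4 lay inside the sham range, mouse 5 below it and mouse 6 above it. Means of 98.2 ± 58.3 and 127 ± 110 gave a log2 fold change of 0.17 (SE 0.56, limma adjusted p = 0.922).

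The coreceptor of helper T cells, Cd4 (ENSMUSG00000023274.14, chr6:124864692-124888221), had values of 32.9, 2.66 and 46.0 in sham mice, against 32.9, 23.1 and 157 in ON-CR mice. Sham mouse 2 held 3 reads, at the detection floor, while sham mouse 1 and ON-CR mouse 4 were equal to 3 digits. Cd4 had the largest estimated difference of the members, a log2 fold change of 1.49, and a wide interval of -0.63 to 3.61 (SE 0.95, limma adjusted p = 0.498). Its means were 27.2 ± 22.2 and 70.9 ± 74.5. Without sham mouse 2 the estimate was 0.34, below those of Cd3e, Cd28, Cd3d and Cd3g, and without ON-CR mouse 6 it was 0.67.

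Cd8a (ENSMUSG00000053977.13, chr6:71373427-71379173) encodes the alpha chain of the coreceptor of cytotoxic T cells, which some dendritic cells also carry. Values were 7.43, 13.3 and 62.9 in sham mice, against 40.9, 4.19 and 75.8 in ON-CR mice. Cd8b1 (ENSMUSG00000053044.8, chr6:71322788-71337494), its beta chain partner within the same 56386 bases, had values of 22.3, 19.5 and 84.5 in sham mice, against 52.8, 12.6 and 112 in ON-CR mice. Both chains ordered the mice almost alike: mouse 6 was highest, then sham mouse 3, then ON-CR mouse 4, and ON-CR mouse 5 was lowest. Log2 fold changes were 0.37 (SE 0.99, limma adjusted p = 0.899) for Cd8a and 0.34 (SE 0.76, limma adjusted p = 0.878) for Cd8b1. Group means were 27.9 ± 30.5 and 40.3 ± 35.8 for Cd8a, and 42.1 ± 36.8 and 59.2 ± 50.1 for Cd8b1.

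The balance of the coreceptors varied from nerve to nerve. Per kilobase of transcript, the ratio of Cd4 to Cd8a was 4.46, 0.201 and 0.736 in sham mice, against 0.810, 5.54 and 2.08 in ON-CR mice. Each group thus held nerves with more Cd4 and nerves with more Cd8a. The extremes rest on few reads, 3 of Cd4 in sham mouse 2 and 4 of Cd8a in ON-CR mouse 5.

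Cd2 (ENSMUSG00000027863.8, chr3:101275899-101287939) encodes an adhesion receptor of T and NK cells that binds CD48 in the mouse. Its values were 39.3, 53.1 and 93.9 in sham mice, against 61.8, 25.2 and 181 in ON-CR mice. As for Lck, ON-CR mouse 5 fell below the sham range and mouse 6 exceeded it. Means of 62.1 ± 28.4 and 89.2 ± 81.3 gave a log2 fold change of 0.18 (SE 0.61, limma adjusted p = 0.924).

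Cd28 (ENSMUSG00000026012.2, chr1:60716800-60773359) encodes the costimulatory receptor for CD80 and CD86. Sham values were 7.43, 26.6 and 36.6, and ON-CR values were 22.9, 13.6 and 158. Mouse 6 stood apart most clearly here, at 6.88 times the median of the other 5 mice. The log2 fold change was 0.89 (SE 0.84, limma adjusted p = 0.668), with means of 23.5 ± 14.8 and 64.8 ± 80.7.

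For single members, the two-sided exact permutation test over the 6 mice gave p = 0.3 to 1, and 3 mice against 3 cannot go below 0.1. The 95% intervals of all 10 log2 fold changes contained 0 and also 1, a doubling, so these mice neither show a rise nor set a limit below a doubling. Without ON-CR mouse 6, 6 of the 10 estimates lay below 0, 5 more than Cd247 alone with all mice, in a range of -0.84 to 0.67.

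**Figure D2:**
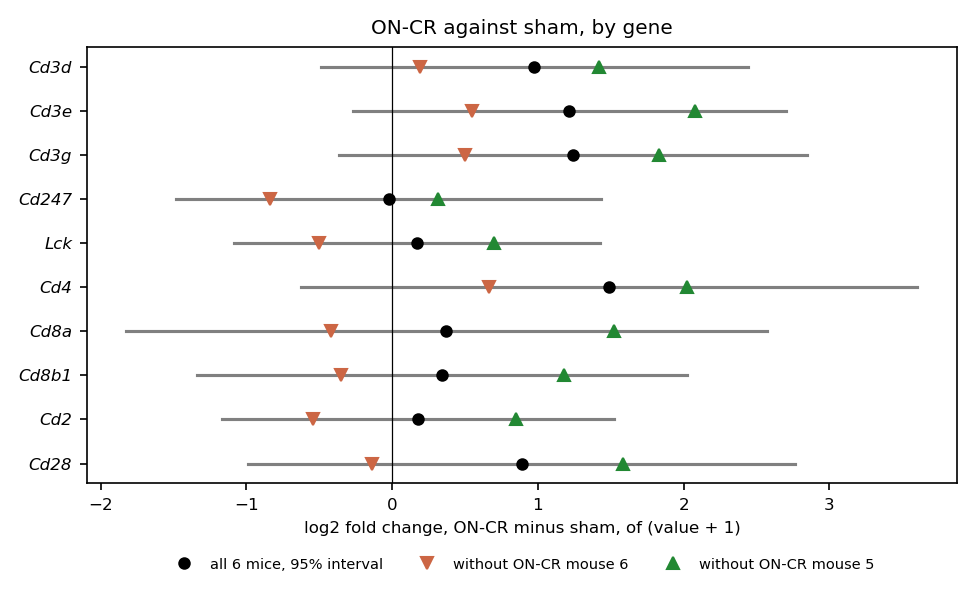
Log2 fold change of ON-CR over sham for each member with its 95% interval (black, all 6 mice), without ON-CR mouse 6 (orange) and without ON-CR mouse 5 (green). Every interval crosses 0, and the estimate of each gene moved down without mouse 6 and up without mouse 5.

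Levels were compared between genes per kilobase of the longest coding transcript. The median over the 6 mice was 49.8 for Cd2, 37.1 for Cd3e, 36.7 for Cd3g, 34.7 for Lck, 25.3 for Cd8b1, 24.7 for Cd3d, 10.6 for Cd4, 8.66 for Cd8a, 5.69 for Cd28 and 4.89 for Cd247. Of neighbours in this order, Lck exceeded Cd8b1 in 6 of 6 mice, by a log2 ratio of 0.76 ± 0.48 (SD), and Cd3d exceeded Cd4 in 5 of 6. The other 7 neighbouring pairs kept their order in 3 or 4 of the 6 mice and did not differ beyond their spread. Transcript models matter for this order: over all annotated exons, Cd3d, at 22.0 per kilobase, stood above Cd3e, at 13.3.

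The members were also described by how alike they varied. Over the 45 pairs of members, Pearson's r of log2 values across the 6 mice ran from 0.50 to 0.98 with a median of 0.84. Against a score made of Cd3d, Cd3e and Cd3g, r was 0.95 for Cd28, 0.89 for Cd2, 0.86 for Cd8b1, Lck and Cd8a, 0.70 for Cd247 and 0.66 for Cd4. Among the other 19640 genes with a mean value of at least 10, the pattern most like this score belonged to Gm12174 (r = 0.996), Myh11 (0.987), Gm26621 (0.986), Ripply3 (0.985), Ndc80 (0.985), Tespa1 (0.984), Gm13237 (0.984) and Cdc20 (0.983). Tespa1 acts in thymocyte receptor signalling, Ndc80 and Cdc20 in mitosis, and Myh11 is the myosin of smooth muscle. These correlations rest on 6 libraries, are given as descriptions, and share the position of ON-CR mouse 6.

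RNA of the receptor chains themselves gave 0 calls by limma among 7 constant regions (0 at an unadjusted p under 0.05), beside 2.10% and 15.6% of all genes. Trac, the alpha chain constant region, was 53.1, 77.9 and 109 in sham mice, against 97.7, 47.2 and 255.4 in ON-CR mice. Trbc2 and Trbc1, of the beta chain, ran from 25.8 to 73.7 and from 7.49 to 26.8 in sham mice, and were highest in ON-CR mouse 6, at 247 and 106. ON-CR mice 4 and 5 lay inside the sham range for Trbc2, at 56.9 and 28.1. For Trbc1 they were at 15.9, inside it, and 3.37, below it. The delta chain gene Trdc differed from these in its order, with values of 23.3, 21.2 and 27.2 in sham mice, against 28.9, 62.9 and 20.8 in ON-CR mice. It was highest in ON-CR mouse 5 and lowest in ON-CR mouse 6, the reverse of Trac. The ratio of Trac to Trdc values, 2.27, 3.67 and 4.00 in sham mice, was 3.38, 0.750 and 12.3 in ON-CR mice. Trgc1, Trgc2 and Trgc4, of the gamma chain, stayed between 0 and 14.0 in every mouse. Trgc4 was 5.31, 6.20 and 5.63 in sham mice, against 0.997, 1.05 and 4.15 in ON-CR mice, from 1 to 7 reads (limma adjusted p = 0.382). It was the 1 of the 7 constant regions whose groups did not overlap, with sham higher, beside 21.6% of all genes in either direction.

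Set against Ptprc, which encodes the leukocyte antigen CD45, the sum of the CD3 chains per 100 units of Ptprc was 20.2, 42.9 and 52.9 in sham mice, against 27.3, 23.4 and 61.1 in ON-CR mice. The groups overlapped on this scale too. Ptprc itself was 263, 225 and 373 in sham mice, against 797, 386 and 1003 in ON-CR mice, each ON-CR mouse above each sham mouse (log2 fold change 1.27, SE 0.32, limma adjusted p = 0.0791).

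Proximal signalling genes, which link the activation motifs to the nucleus, numbered 32, of which 0 were higher and 1 was lower by limma, beside 2.10% of all genes. At an unadjusted p under 0.05 there were 11, beside 15.6% of all genes. Their median log2 fold change was 0.52, and 24 were highest in ON-CR mouse 6. The gene that fell was Prkcq, which encodes protein kinase C theta and is also transcribed outside T cells, from 522 ± 39.0 to 296 ± 61.2 (log2 fold change -0.83, SE 0.17, limma adjusted p = 0.0375). Its adjusted p rose to 0.191 without ON-CR mouse 6, and to 0.142, 0.190 and 0.0896 without sham mice 1, 2 and 3. The most abundant genes of the list, Fyn and Cbl, encode a Src family kinase and a ubiquitin ligase. Fyn had a limma adjusted p of 0.728 and Cbl of 0.123. Zap70, the kinase that docks on phosphorylated motifs, was 27.6, 15.1 and 44.1 in sham mice, against 6.98, 12.6 and 92.4 in ON-CR mice, with ON-CR mice 4 and 5 lowest and mouse 6 highest as for Cd247.

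Costimulatory and inhibitory receptors numbered 16, and by limma 0 were called, with 4 (Pdcd1, Lag3, Havcr2 and Slamf6) higher at an unadjusted p under 0.05, beside 15.6% of all genes in either direction. Their median log2 fold change was 1.40, and 14 were highest in ON-CR mouse 6. Havcr2 (TIM-3) and Lag3, the most abundant of the list and both made outside T cells as well, had log2 fold changes of 0.96 and 1.06 with limma adjusted p = 0.0647 and 0.125. The genes named next were chosen after their values were seen, for standing apart in ON-CR mouse 6. Tnfrsf4 (OX40) was 65.4 there against a median of 1.06 in the other 5 mice, Tigit 121 against 4.19, Cd6 141 against 6.37 and Icos 99.7 against 10.5. Pdcd1 (PD-1) was 6.37, 20.4 and 18.8 in sham mice, against 49.9, 25.2 and 138 in ON-CR mice. Ctla4 was 12.5 in ON-CR mouse 6 and 0 in the other 5 mice. Tnfrsf4, Tigit and Ctla4 were thus at or near the floor in several nerves and well above it in mouse 6.

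**Figure D3:**
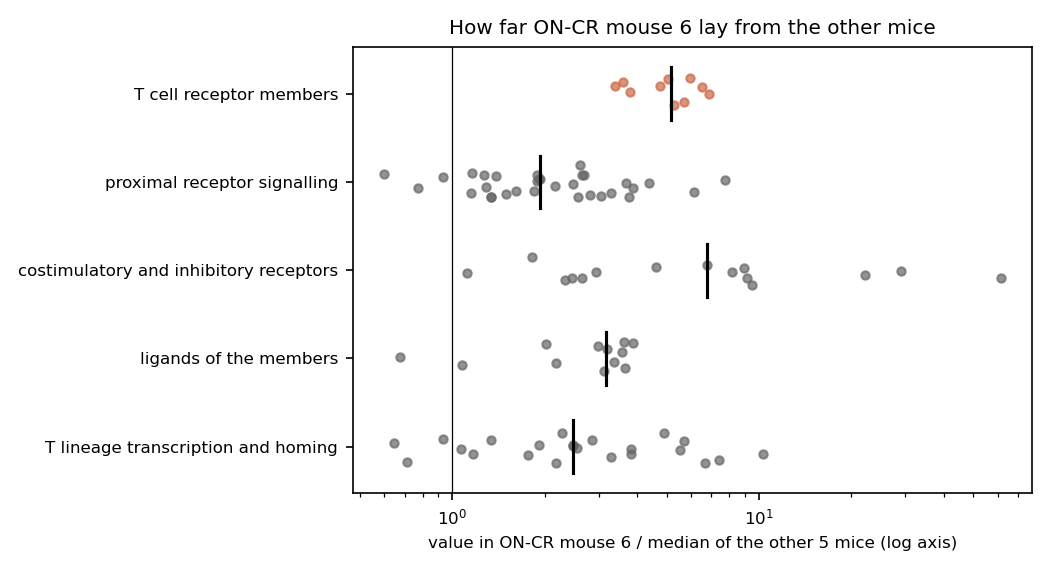
Value in ON-CR mouse 6 divided by the median of the other 5 mice (log axis), 1 point per gene, with a line at each list's median. The 10 members lay between 3.40 and 6.88 with a median of 5.15, beside medians of 1.93 for proximal signalling, 6.78 for costimulatory and inhibitory receptors, 3.16 for ligands and 2.48 for T lineage genes; genes at 0 in the other mice are not drawn.

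Ligands of the members numbered 12. By limma, 2 were higher after ON-CR and 0 lower, beside 0.971% and 1.13% of all genes. Cd48, the ligand of CD2, had values of 110, 111 and 183 in sham mice, against 474, 299 and 572 in ON-CR mice (log2 fold change 1.72, SE 0.27, limma adjusted p = 0.0123). Cd86, a ligand of CD28 on antigen-presenting cells, had values of 169, 104 and 161 in sham mice, against 412, 243 and 540 in ON-CR mice (log2 fold change 1.42, SE 0.29, limma adjusted p = 0.0393). For both ligands every ON-CR mouse exceeded every sham mouse, unlike any of the members. Leaving out 1 mouse moved the limma adjusted p of Cd48 to between 0.00198 and 0.122 and that of Cd86 to between 0.00376 and 0.215. Cd48 lost its call without sham mouse 1 or 2 or ON-CR mouse 6, and Cd86 in all cases but that without ON-CR mouse 5. Cd74, the invariant chain of class II molecules, was 21941, 22548 and 33102 in sham mice, against 23797, 9626 and 81769 in ON-CR mice, with mouse 5 the lowest and mouse 6 the highest of all, extremes it shared with Cd2, Lck, Cd8a and Cd8b1. B2m, the light chain of class I molecules, was 9182 to 10446 in sham mice, against 12144 to 31183 in ON-CR mice (limma adjusted p = 0.123).

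T lineage transcription factors and homing receptors numbered 23, with 0 higher and 1 lower by limma, beside 0.971% and 1.13% of all genes, and a median log2 fold change of 0.56. At an unadjusted p under 0.05 there were 5 (Tcf7, Foxp3 and Thy1 higher, Zbtb7b and S1pr1 lower), beside 15.6% of all genes. S1pr1, a sphingosine phosphate receptor that guides T cell exit from lymph nodes and is abundant in astrocytes and endothelium, fell from 4364 ± 364 to 2930 ± 348 (log2 fold change -0.58, SE 0.12, limma adjusted p = 0.0436). Its adjusted p was 0.0548 without ON-CR mouse 4, 0.205 without ON-CR mouse 6 and 0.149, 0.223 and 0.0700 without sham mice 1, 2 and 3. Thy1, which neurons also make, was 162 ± 31.0 and 241 ± 35.2 (limma adjusted p = 0.196). The homing receptors Ccr7 and Cxcr3 were 155 and 219 in ON-CR mouse 6 and at most 45.1 and 61.8 in the others. Foxp3, the factor of regulatory T cells, was 1.06, 0.99 and 10.9 in sham mice, against 8.84, 9.22 and 20.2 in ON-CR mice.

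Markers of other cell types moved with the members in ON-CR mouse 6, and their part in the result was not tested. NK cell genes (7 in the table, 0 called by limma, 4 highest in mouse 6), led by Nkg7 and Klrk1, had summed values of 88.5 to 279 in sham mice, against 74.4 to 504 in ON-CR mice. B cell genes (7, 0 called, 6 highest in mouse 6), led by Cd79a and Cd79b, ran from 105 to 187 and from 121 to 680. Plasma cell genes (7, 0 called, 6 highest in mouse 6), led by Jchain and Xbp1, ran from 2213 to 2566 and from 1199 to 14749, and Jchain alone was 12738 in mouse 6 against 12.6 to 372 in the other mice. The summed values of these 3 lists were thus highest in the same nerve, though not every gene was. Of the NK cell sum of 504 in mouse 6, Nkg7 was 324 and Klrk1 106. Ncr1 was instead highest in sham mouse 2, and Klre1 and Prf1 were highest in sham mouse 3. Thymocyte genes (3 of 5 in the table, 0 called) had no gene highest in mouse 6, with Rag1 at 0 there. At an unadjusted p under 0.05, limma gave 1 B cell gene (Blk, higher), 1 plasma cell gene (Xbp1, lower), 1 thymocyte gene (Rag1, lower) and 0 NK cell genes, beside 15.6% of all genes (2.10% called). Xbp1 ran against its list, with means of 1922 ± 153 under sham surgery and 1073 ± 481 after ON-CR, and was lowest in mouse 6, at 635.

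Myeloid genes were in part highest in the same nerve, namely 6 of 9 dendritic cell, 5 of 9 macrophage and monocyte, and 3 of 9 microglial genes. Of all genes with a mean value of at least 10, 20.3% were highest there. Summed values ran from 928 to 1073 in sham mice, against 973 to 1814 in ON-CR mice for dendritic cell genes, and from 2485 to 2763 and from 3712 to 6067 for macrophage and monocyte genes, with both maxima in mouse 6. Microglial genes summed to 14257 to 19470 in sham mice, against 17405 to 25618 in ON-CR mice, with the maximum in ON-CR mouse 4. Their part in the members' values was not tested. Beside 0.971% of all genes called higher by limma, dendritic cell genes included 1 of 9, Itgax (log2 fold change 3.16, adjusted p = 0.00168), while Siglech was not called. Among 9 macrophage and monocyte genes 1 was higher, Cd68 (1.80, limma adjusted p = 0.00128), with Adgre1 not called. Among 9 microglial genes 1 was higher, Aif1 (1.22, limma adjusted p = 0.0260), with Csf1r not called. The microglial genes Tmem119, P2ry12 and Sall1 had log2 fold changes of -0.27, -0.35 and -0.07, and the rest of that list lay above 0. For Tmem119 every sham mouse exceeded every ON-CR mouse. Itgax, Cd68 and Aif1 were each highest in mouse 6, with mouse 5 the lowest ON-CR mouse. Aif1 lost its call when any mouse but ON-CR mouse 5 was left out (limma adjusted p up to 0.175), while Itgax and Cd68 kept theirs throughout. Neutrophil genes (4 of 6 in the table, 0 called), led by S100a8 and S100a9, summed to 40.7 to 171 in sham mice, against 94.7 to 155 in ON-CR mice. Red blood cell genes (6, 0 called), led by Hbb-bs and Hba-a2, summed to 269419 to 509322 in sham mice, against 136985 to 378059 in ON-CR mice, and 0 of them were highest in mouse 6. Among monocyte genes, Ly6c2 and Plac8 were 385 and 262 in mouse 6 and at most 70.5 and 96.7 in the others. Skeletal muscle genes (6, 0 called), led by Tnnt3 and Acta1, and airway genes (6 of 7 in the table, 0 called), led by Bpifa1 and Krt18, had no gene highest in mouse 6. At an unadjusted p under 0.05, limma gave 2 dendritic cell, 3 macrophage and monocyte and 3 microglial genes, all higher, and 0 in each of the neutrophil, red blood cell, muscle and airway lists, beside 15.6% of all genes.

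The tissue itself was recognizable in every library. All 6 oligodendrocyte genes were lower after ON-CR by limma, beside 1.13% of all genes, with Mbp the most abundant. Without ON-CR mouse 6 or without sham mouse 2, none of these 6 was called. Of 6 astrocyte genes, S100b alone was called by limma, as lower (log2 fold change -0.75, adjusted p = 0.0185, but 0.0548 and 0.0968 without ON-CR mice 4 and 6 and 0.0748 and 0.124 without sham mice 1 and 2) and the abundant Gfap and Gja1 were not called. Astrocyte genes summed to 169531 to 205096 in sham mice, against 239348 to 277858 in ON-CR mice. At an unadjusted p under 0.05, Gfap (log2 fold change 0.64), Aqp4 (0.43) and Slc1a3 (0.31) were higher and S100b lower by limma, beside 15.6% of all genes.

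**Figure D4:**
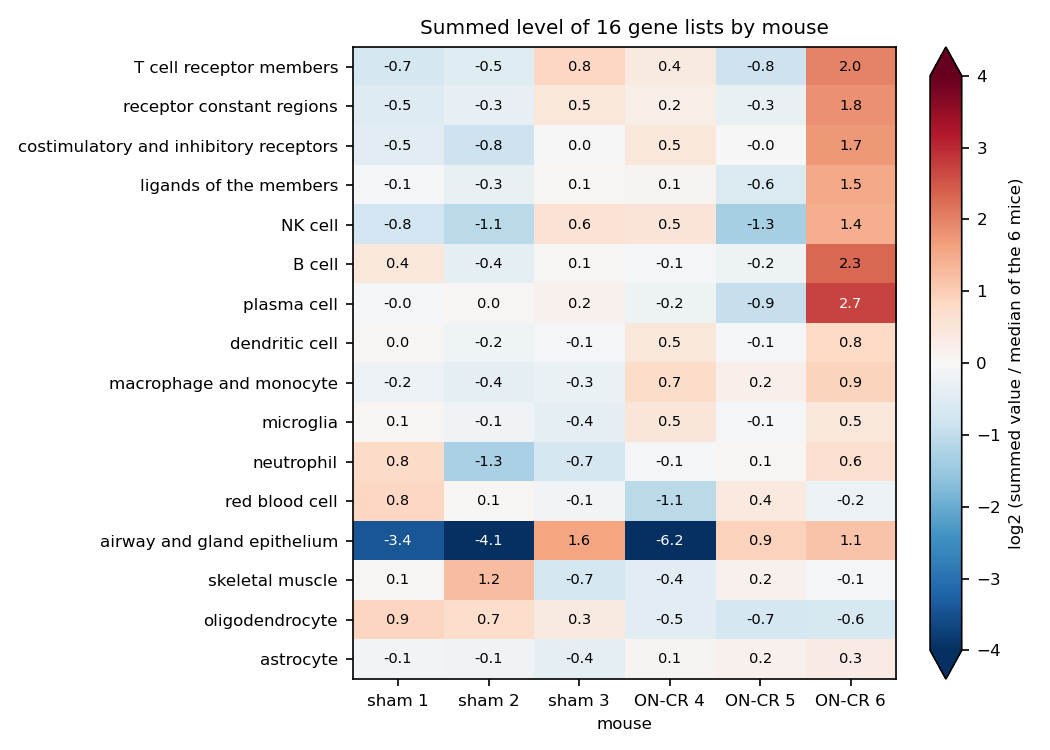
Summed normalized value of 16 of the gene lists in each mouse, as log2 of its ratio to the median of the 6 mice, with the value printed in each cell and colours ending at 4 in both directions. The members stood 2.0 above the median in ON-CR mouse 6 and 0.8 below it in ON-CR mouse 5. The sums of B cell, plasma cell and NK cell genes were also highest in mouse 6.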

How the data were processed

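RNA of whole optic nerves was sequenced in bulk from 10 ng of total RNA per mouse. The authors aligned and quantified reads with DRAGEN 3.9.3-8, assigned them to mm10 Ensembl models and normalized the counts by their median in Partek 10.0. The deposited unit is this normalized signal, in which each library's counts were divided by a constant. Between 67.8% and 70.0% of values below 1000 reads were whole multiples of the value of 1 read (tolerance 0.01 reads) and no count model was run. Estimated reads served for depth and the floor, which cover counting error only.

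Groups were taken from the sample labels. The tested scale was log2(value + 1), on which fold changes of low genes can be understated or overstated. From a pseudocount of 0.5 to 2, the estimate shrank for Cd4 (1.55 to 1.38) and grew for Cd8a (0.366 to 0.381). Among the members, the estimates of Cd2 and Lck also grew, and the rest shrank in size. Tests used limma 3.58.1 (R 4.3.3) and a trended prior variance, and p was adjusted by Benjamini-Hochberg for 25755 genes. Called means an adjusted p at or under 0.05. P-values measure the spread between these mice. The members and all lists were chosen with earlier results of these data known. Genes named were the members, the receptor constant regions, called genes of each list, the 2 most abundant genes of each list and the 8 most like the CD3 score. Genes that this rule would name but whose results are withheld are not reported. Others, such as Zap70, Ptprc, Foxp3, Ccr7, Cxcr3, Rag1, Blk, Ly6c2, Plac8 and the sex-linked genes, were added with their values in view. Alternatives were pseudocounts of 0.5 and 2, TMM and upper-quartile scaling, filters (a mean of at least 1 in each group, or more than 3 reads in at least 3 mice), a robust fit, array quality weights and leaving out each mouse.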

Additional observations from a re-analysis of the deposited data

How the results depend on the processing

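No paired analysis was possible because the mice carry different numbers in the sham and ON-CR groups. The count of called members was 0 under every other setting and 0 to 1 when a mouse was left out, the 1 being Cd3e without ON-CR mouse 5. For proximal signalling the count of 1 became 4 with array quality weights and 0 to 5 when a mouse was left out. For costimulatory and inhibitory receptors the count of 0 became 1 with the robust fit, 1 with array quality weights and 0 to 2 when a mouse was left out, the robust and weighted call being Havcr2. When a mouse was left out, the count was 0 to 4 for ligands (2 with all mice) and 0 to 1 for T lineage genes (1 with all mice). Over all genes, 540 calls became 791 with array quality weights and 710 with the robust fit, so calls rose across the table as well. They became 67 when ON-CR mouse 6 was left out and 854 when mouse 5 was.

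The log2 fold change of Cd247 turned to 0.00026 with array quality weights. These weights raised the estimates of all members, among them Cd8a (0.37 to 0.81), Cd8b1 (0.34 to 0.71), Lck (0.17 to 0.36) and Cd2 (0.18 to 0.36). Leaving out a mouse gave ranges that crossed 0 for Cd247 (-0.84 to 0.45), Cd8a (-0.42 to 1.52), Cd8b1 (-0.35 to 1.18), Lck (-0.50 to 0.70), Cd2 (-0.54 to 0.85) and Cd28 (-0.14 to 1.58). The estimates of Cd3d (0.19 to 1.42), Cd3e (0.55 to 2.08), Cd3g (0.50 to 1.94) and Cd4 (0.34 to 2.18) stayed above 0. The cause was not tested beyond the mouse left out. Both scalings moved the median of all genes by less than 0.1 on the log2 scale. Precision is limited by 3 mice per group and by counts as low as 3 reads.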

Other observations

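Variable segments of the alpha and beta chains give a further reading of T cell receptor RNA that no comparison above used. The table held 12 of them. Their summed normalized value was 28.7, 18.6 and 26.3 in sham mice 1, 2 and 3, against 27.5, 14.7 and 98.3 in ON-CR mice 4, 5 and 6, from 27, 21, 28, 28, 14 and 95 estimated reads. As for the summed value of the members, ON-CR mouse 6 was highest and ON-CR mouse 5 lowest, while sham mouse 3 did not stand above sham mouse 1. At least 1 read was found for 7, 7 and 8 segments in the sham mice and for 11, 7 and 11 in the ON-CR mice. With so few reads, these counts do not measure how many clones were present.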
